A study of Mus musculus with 6 samples.

Results

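Exon regions were the stretches of enriched chromatin that the deposited annotation placed in an exon and not in a promoter or a UTR. They were taken as every region whose annotation begins with the word Exon, and they numbered 15862 of 456310 regions over 4 tables. The table of TGF-b over NC in the T set held 5970 exon regions of 170890 (3.49%), and that of siRNA over TGF-b held 6243 of 180118 (3.47%). The corresponding S set tables held 1791 of 52723 (3.40%) and 1858 of 52579 (3.53%). Each list was divided at 1 kb from the nearest transcription start site of the annotation. Within 1 kb lay 2016, 1990, 631 and 738 regions in that order, and all of them were downstream of the start site. Beyond 1 kb lay 3954, 4253, 1160 and 1120 regions, of which 23.6% to 24.7% were upstream of the start site they were assigned to.

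The libraries came from mouse primary cardiac fibroblasts, which are cultured cells isolated from heart tissue. Each set held 3 CUT&Tag libraries, labelled NC (the control), TGF-b, and TGF-b plus an siRNA, the label of which is TGF-b+SiTAZ in the T set and TGF-b+SiSRF in the S set. The study profiled TAZ and SRF, so T and S were read as these factors although no label names the antibody, and the study's text describes an siRNA against Piezo2, so the target of the siRNA is left as labelled. All groups shared the cell type, the labels give no genotype, strain or age for the mice, and with 1 library per treatment and set no test of a treatment was possible. CUT&Tag does not measure transcripts, so it checks neither a knockdown nor the identity of the cells, and of the 8 fibroblast markers 2, 3, 1 and 0 had an exon region in the 4 tables, whereas of the 7 cardiomyocyte markers 4, 3, 4 and 2 had one, among them Ttn, a very long muscle gene. Of the 5 endothelial, 5 macrophage and 5 smooth muscle or pericyte markers, 0 to 3 had one in any table.

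TAZ is a coactivator of the Hippo pathway that does not bind DNA by itself and reaches chromatin mainly through TEAD factors. SRF is a DNA-binding factor that recognises the CArG box and, with its MRTF and TCF cofactors, serves genes of the actin cytoskeleton and the immediate early response. In cardiac fibroblasts both factors act when TGF-b turns the cells into contractile, matrix-producing myofibroblasts. CUT&Tag tethers a transposase to an antibody, which leaves reads around the bound site and, at a lower rate, in open chromatin such as the start of an active gene.

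To show the kinds of DNA at issue, 6 promoters and 6 exons of genes described below are printed, read from GRCm38 and given 5′ to 3′ on the strand of the gene. Promoters are the 250 bases before the start in RefSeq, which may differ from the start used in the deposited tables. They are shown because the 2 kb window of an exon region within 1 kb of a start usually takes in the start itself. The first group has each CG dinucleotide in capitals. BC005624 held one of the densest nuclear exon regions of the T set, and of the regions within 1 kb with at least 4 reads in both libraries and a density at or above the median, Gabbr2 had one of the highest log2 ratios with TGF-b in the S set and 2310015K22Rik the highest with siRNA in the T set.
BC005624 (chr2:30981942-30982191, reverse strand): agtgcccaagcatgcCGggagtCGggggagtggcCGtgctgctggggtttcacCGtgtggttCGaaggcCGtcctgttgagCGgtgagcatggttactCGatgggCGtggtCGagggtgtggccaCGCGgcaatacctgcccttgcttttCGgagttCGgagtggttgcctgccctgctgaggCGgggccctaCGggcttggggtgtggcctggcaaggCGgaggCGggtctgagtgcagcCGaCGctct
Gabbr2 (chr4:46991715-46991964, reverse strand): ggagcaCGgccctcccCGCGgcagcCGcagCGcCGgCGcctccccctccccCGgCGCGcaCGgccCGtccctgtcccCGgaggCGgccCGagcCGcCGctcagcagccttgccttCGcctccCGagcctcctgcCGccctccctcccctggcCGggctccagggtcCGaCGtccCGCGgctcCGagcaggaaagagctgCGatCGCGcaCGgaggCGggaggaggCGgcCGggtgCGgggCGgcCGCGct
2310015K22Rik (chr1:80207684-80207933, forward strand): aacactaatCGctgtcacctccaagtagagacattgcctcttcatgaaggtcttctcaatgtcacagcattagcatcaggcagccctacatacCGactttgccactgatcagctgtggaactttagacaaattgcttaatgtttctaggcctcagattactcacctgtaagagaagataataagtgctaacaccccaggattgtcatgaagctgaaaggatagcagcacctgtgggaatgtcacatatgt
These promoters held 20, 37 and 2 CG dinucleotides.

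In the next 3 promoters, capitals mark a CArG box, searched on both strands, or the letters GGAATG, the core of the TEAD site, on either strand. Of 22862 genes with a single promoter in the table, 1.38% held a CArG box and 12.6% held GGAATG in these 250 bases, so a match describes the letters and not a bound site.
Fermt2 (chr14:45530066-45530315, reverse strand): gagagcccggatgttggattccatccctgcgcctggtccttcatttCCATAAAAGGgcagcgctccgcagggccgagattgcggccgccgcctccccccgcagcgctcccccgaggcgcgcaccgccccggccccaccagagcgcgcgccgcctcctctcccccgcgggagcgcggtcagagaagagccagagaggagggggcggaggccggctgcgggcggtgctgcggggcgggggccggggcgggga
0610009L18Rik (chr11:120348428-120348677, forward strand): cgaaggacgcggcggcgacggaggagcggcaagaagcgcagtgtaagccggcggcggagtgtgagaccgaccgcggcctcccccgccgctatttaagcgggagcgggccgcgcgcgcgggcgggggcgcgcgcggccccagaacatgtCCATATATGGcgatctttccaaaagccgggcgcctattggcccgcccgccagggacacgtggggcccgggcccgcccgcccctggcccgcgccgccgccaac
Ccn1 (chr3:145649986-145650235, reverse strand): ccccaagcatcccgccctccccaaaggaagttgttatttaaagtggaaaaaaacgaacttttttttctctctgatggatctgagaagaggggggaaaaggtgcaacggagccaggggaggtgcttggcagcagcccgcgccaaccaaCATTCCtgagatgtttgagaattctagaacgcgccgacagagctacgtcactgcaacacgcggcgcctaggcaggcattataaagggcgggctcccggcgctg
Fermt2 and 0610009L18Rik held a CArG box, and Ccn1 held the TEAD letters on the opposite strand. These 3 are shown for their match and do not stand for the promoters of exon regions in general. The 2310015K22Rik promoter above also held GGAATG, which is not marked there.

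The exons belong to protein-coding transcripts and carried a region beyond 1 kb, from the GENCODE annotation of GRCm38, with CG dinucleotides in capitals for Myof, Smarcd1, Rnf123, Camk2b and Stk32b and with GGAATG in capitals for Fhl2. They are shown because several of the regions with the highest or lowest log2 ratios beyond 1 kb lay on short internal exons.
Myof exon 20 (chr19:37959714-37959838, reverse strand): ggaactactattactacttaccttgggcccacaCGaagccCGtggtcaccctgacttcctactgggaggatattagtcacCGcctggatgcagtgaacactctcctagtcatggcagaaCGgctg
Smarcd1 exon 12 (chr15:99712159-99712260, forward strand): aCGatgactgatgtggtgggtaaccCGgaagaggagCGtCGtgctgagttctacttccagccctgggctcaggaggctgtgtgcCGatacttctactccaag
Rnf123 exon 12 (chr9:108068991-108069095, reverse strand): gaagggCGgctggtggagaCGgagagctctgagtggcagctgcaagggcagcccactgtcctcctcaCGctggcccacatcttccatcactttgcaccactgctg
Camk2b exon 9 (chr11:5989574-5989668, reverse strand): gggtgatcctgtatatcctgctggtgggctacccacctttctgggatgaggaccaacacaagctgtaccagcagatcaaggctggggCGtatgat
Stk32b exon 6 (chr5:37490461-37490550, reverse strand): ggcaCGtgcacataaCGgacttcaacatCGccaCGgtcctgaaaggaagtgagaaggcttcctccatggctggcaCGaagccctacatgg
Fhl2 exon 5 (chr1:43128244-43128430, reverse strand): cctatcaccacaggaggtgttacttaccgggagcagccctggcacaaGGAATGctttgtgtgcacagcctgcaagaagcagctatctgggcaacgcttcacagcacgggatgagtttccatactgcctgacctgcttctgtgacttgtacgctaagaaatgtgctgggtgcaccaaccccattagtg
They are 125, 102, 105, 95, 90 and 187 bases long, so that the window of 2 kb counted around each region lies mostly outside the exon. They are shorter than most exons with a region beyond 1 kb, whose median length was 574 and 526 bases in the T set and 735 and 662 in the S set.

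The values that follow are of 2 kinds. A density is the authors' normalized number of reads per kb in a window of 2 kb, rescaled within its table. A read count is the number of reads in that window, recovered from the density and not scaled, so that unequal read counts can stand for equal densities. A log2 ratio is always of densities, of the later treatment over the earlier one, and its interval covers counting error only. Both tables of a set hold the same TGF-b library, so their ratios are set side by side and not compared.

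Exon regions were shallow. Within 1 kb the median region held 12 reads in the NC library and 10 in the TGF-b library of the T set, and 9 and 15 in the S set. The medians beyond 1 kb were 9 and 5 in the T set and 8 and 10 in the S set. In the tables of siRNA over TGF-b, the median within 1 kb was 10 reads with TGF-b and 9 with siRNA in the T set and 15 and 12 in the S set, and beyond 1 kb it was 5 and 7, and 11 and 8. The regions near a start were thus the deeper ones in every library of every table. The share of regions with 3 reads or fewer in a library was 29.1%, 35.2%, 17.1% and 11.5% within 1 kb and 48.2%, 56.0%, 28.9% and 25.3% beyond, in the order of the tables given above.

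Density within 1 kb was between that of introns and that of promoters. Its median over both libraries was 6.23, 5.34, 6.22 and 7.31 in the 4 tables, against 7.67, 6.39, 6.74 and 8.31 for promoter regions and 4.0, 3.49, 4.70 and 4.73 for intron regions. The median density beyond 1 kb was 4.06, 3.56, 5.0 and 5.12, against 3.99, 3.49, 4.90 and 4.97 over all regions. Exon regions far from a start therefore had the density of a typical region.

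The distance to a start site ordered the ratios of the T set. With TGF-b the median log2 ratio was -0.18 (95% rank interval -0.26 to -0.12) within 1 kb and -0.76 (-0.80 to -0.69) beyond, against -0.65 over all regions. In the table of siRNA over TGF-b it was 0.33 (0.26 to 0.45) within 1 kb and 1.0 (0.94 to 1.04) beyond, against 0.97. Thus the T set median beyond 1 kb lay near that of the table as a whole, and the median near a start was closer to 0. The signs themselves depend on the scaling: once the median over all regions is subtracted, the T set medians within 1 kb were 0.47 with TGF-b and -0.64 with siRNA. The difference between the medians within and beyond 1 kb, which the centring leaves alone, was 0.57 (0.48 to 0.66, from the rank intervals of both medians) for TGF-b over NC and -0.67 (-0.78 to -0.56) for siRNA over TGF-b.

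In the S set with TGF-b, the median log2 ratio was 0.26 (0.15 to 0.37) within 1 kb, and beyond it was -0.11 (-0.22 to -0.01), against -0.20 over all regions. The siRNA over TGF-b table had medians of -0.19 (-0.27 to -0.11) and -0.39 (-0.49 to -0.31), against -0.21. The difference between near and far was 0.37 (0.22 to 0.53) with TGF-b and 0.20 (0.09 to 0.32) with siRNA. Regions near a start were thus higher than the far ones in both S set tables. With ratios centred on all regions, the siRNA median within 1 kb was 0.024 and the TGF-b median beyond 1 kb was 0.084, and without the rescaling line solved from the densities the TGF-b medians were 0.83 and 0.47. The log2 ratios of single regions given below carry this line.

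Counts past 2-fold gave the same order. In the T set with TGF-b, 378 regions within 1 kb were at least 2-fold higher (18.8%) and 573 at least 2-fold lower (28.4%), where all regions gave 17.3% and 42.1%. Beyond 1 kb, 663 were higher (16.8%) and 1705 lower (43.1%). In the siRNA table, 670 regions within 1 kb were higher (33.7%) and 398 lower (20%), against 49.7% and 16.2% of all regions, and beyond 1 kb 2128 were higher (50.04%) and 627 lower (14.7%). Beyond 1 kb the shares were close to the background, whereas near a start there were fewer regions past 2-fold in the direction of the whole table. Of the regions past 2-fold, 39.7% within 1 kb were higher with TGF-b and 68.1% after centring on all regions, and the siRNA values were 62.7% and 29.3%, or 46.4% without the rescaling line. The same pairs beyond 1 kb were 28.0% and 48.1%, and 77.2% and 52.2%.

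In the S set with TGF-b, 163 regions within 1 kb were at least 2-fold higher (25.8%) and 89 lower (14.1%), where all regions gave 17.4% and 26.7%. Beyond 1 kb, 233 were higher (20.1%) and 313 lower (26.98%). For siRNA over TGF-b, 79 were higher (10.7%) and 154 lower (20.9%) within 1 kb and 167 (14.9%) and 367 (32.8%) beyond, against 15.1% and 27.8%. The higher share of the near regions, 64.7% of those past 2-fold with TGF-b, was 74.5% after centring and 86.1% without the rescaling line, and beyond 1 kb the values were 42.7%, 52.9% and 69.4%. With siRNA the shares were 33.9% and 31.3%, and 50% and 42.4% after centring. In the plot of cumulative shares, the curve of the near regions stands apart from that of all regions in the T set, while that of the far regions lies closer to it.

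**Figure D1:**
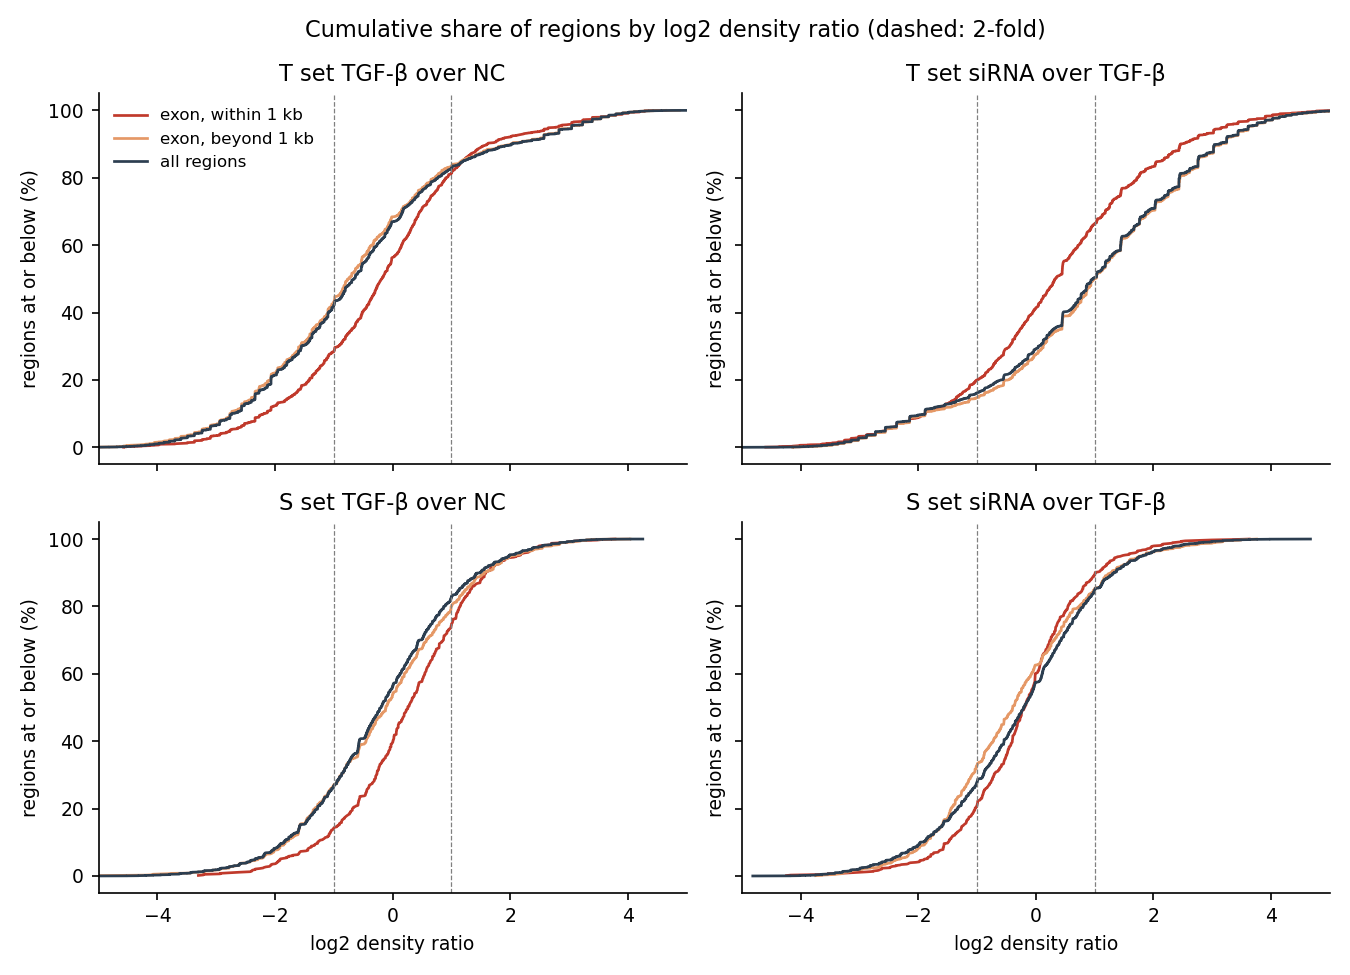
Cumulative share of regions (%, vertical axis) by log2 density ratio (horizontal axis) for exon regions within 1 kb, exon regions beyond 1 kb and all regions, 1 panel per table, with dashed lines at 2-fold. In the T set the curve beyond 1 kb lies nearer to that of all regions than the curve within 1 kb does, with medians of -0.76 against -0.65 and 1.0 against 0.97.

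Which library a region was called in moved with these medians. The T set libraries had 4383 called exon regions under NC, 1909 under TGF-b and 4593 under siRNA, and those of the S set had 853, 981 and 962. The drop of the T set with TGF-b was shared by intron regions. Beyond 20 kb, 71.3% of exon and 71.2% of intron regions were called under NC alone and 25.5% and 25.4% with TGF-b alone. For siRNA over TGF-b, 22.8% and 24.7% were called with TGF-b alone and 75.2% and 72.9% with siRNA alone. Within 1 kb lay 32.7%, 39.4% and 29.9% of the called exon regions of the T set and 28.8%, 42.0% and 41.2% of those of the S set. These shares are not given over all regions. Regions called only in the first library of a table have low ratios by construction, and those called only in the second have high ones. Beyond 1 kb in the T set these medians were -1.29 and 1.41 with TGF-b, and their mean, which weights both kinds alike, was 0.063 in place of -0.76. The corresponding mean with siRNA over TGF-b was 0.11 in place of 1.0. Within 1 kb the T set means were 0.14 and -0.0052, in place of -0.18 and 0.33. Weighted in this way, the difference between near and far regions kept its sign but was 0.075 with TGF-b and -0.11 with siRNA in the T set, in place of 0.57 and -0.67, and 0.19 and 0.10 in the S set, in place of 0.37 and 0.20. How far the number of called regions sets these medians was not tested further.

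Regions called in both libraries were more frequent near a start. Their share within 1 kb was 8.53%, 6.93%, 4.28% and 9.49% in the 4 tables, against 5.42%, 4.21%, 2.19% and 3.90% of all regions, and beyond 1 kb it was 3.79%, 2.85%, 1.38% and 1.34%. In these shared regions the medians within 1 kb were 0.34, -0.12, 0.10 and -0.01 and those beyond were -0.16, 0.32, 0.43 and -0.43. With TGF-b over NC in the S set the shared regions were thus in the opposite order to all exon regions, on 27 near and 16 far regions whose intervals overlap (-0.20 to 0.35 and -0.14 to 0.89).

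Finer steps of distance showed no break at 1 kb in the T set. With TGF-b the median log2 ratio of exon regions went from -0.09 within 250 bp to -0.40 at 500 to 1000 bp, -0.70 at 2 to 5 kb and -0.82 beyond 20 kb. The siRNA medians went from 0.23 to 0.52, 0.94 and 1.04. Intron regions at the same distances followed the same course, and at 2 to 20 kb exon and intron regions had equal medians in both T set tables (-0.77 and -0.77 with TGF-b, 1.03 and 1.03 with siRNA over TGF-b).

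At 2 to 20 kb, the exon and intron regions of the S set had different medians. There, 741 exon regions had a median log2 ratio of -0.00 (-0.11 to 0.09) with TGF-b where 8040 intron regions had -0.26 (-0.31 to -0.22), a difference of 0.26 (0.15 to 0.37). Under siRNA over TGF-b, 738 exon regions had -0.49 (-0.60 to -0.35) and 8140 intron regions -0.13 (-0.17 to -0.09), a difference of -0.35 (-0.48 to -0.22). Without the rescaling line these differences were 0.26 and -0.36, and among regions with at least 10 reads in a library they were 0.18 and -0.31. Both S set tables hold the TGF-b library, so their opposite signs are not independent. The calls differed too. In the table of TGF-b over NC, 49.8% of exon and 44.0% of intron regions at 2 to 5 kb were called with TGF-b alone. At 5 to 20 kb the shares were 50.9% and 44.8%. For siRNA over TGF-b they were 51.2% and 43.4%, then 49.9% and 44.0%. How much of the difference in medians follows from the calls was not tested. The plot by distance shows this gap between the exon and intron curves in the lower panels and their overlap in the upper ones. In every other step of distance their intervals overlap in both S set tables. Beyond 20 kb the exon median with TGF-b was -0.45 (-0.71 to -0.33), close to the intron median of -0.35.

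**Figure D2:**
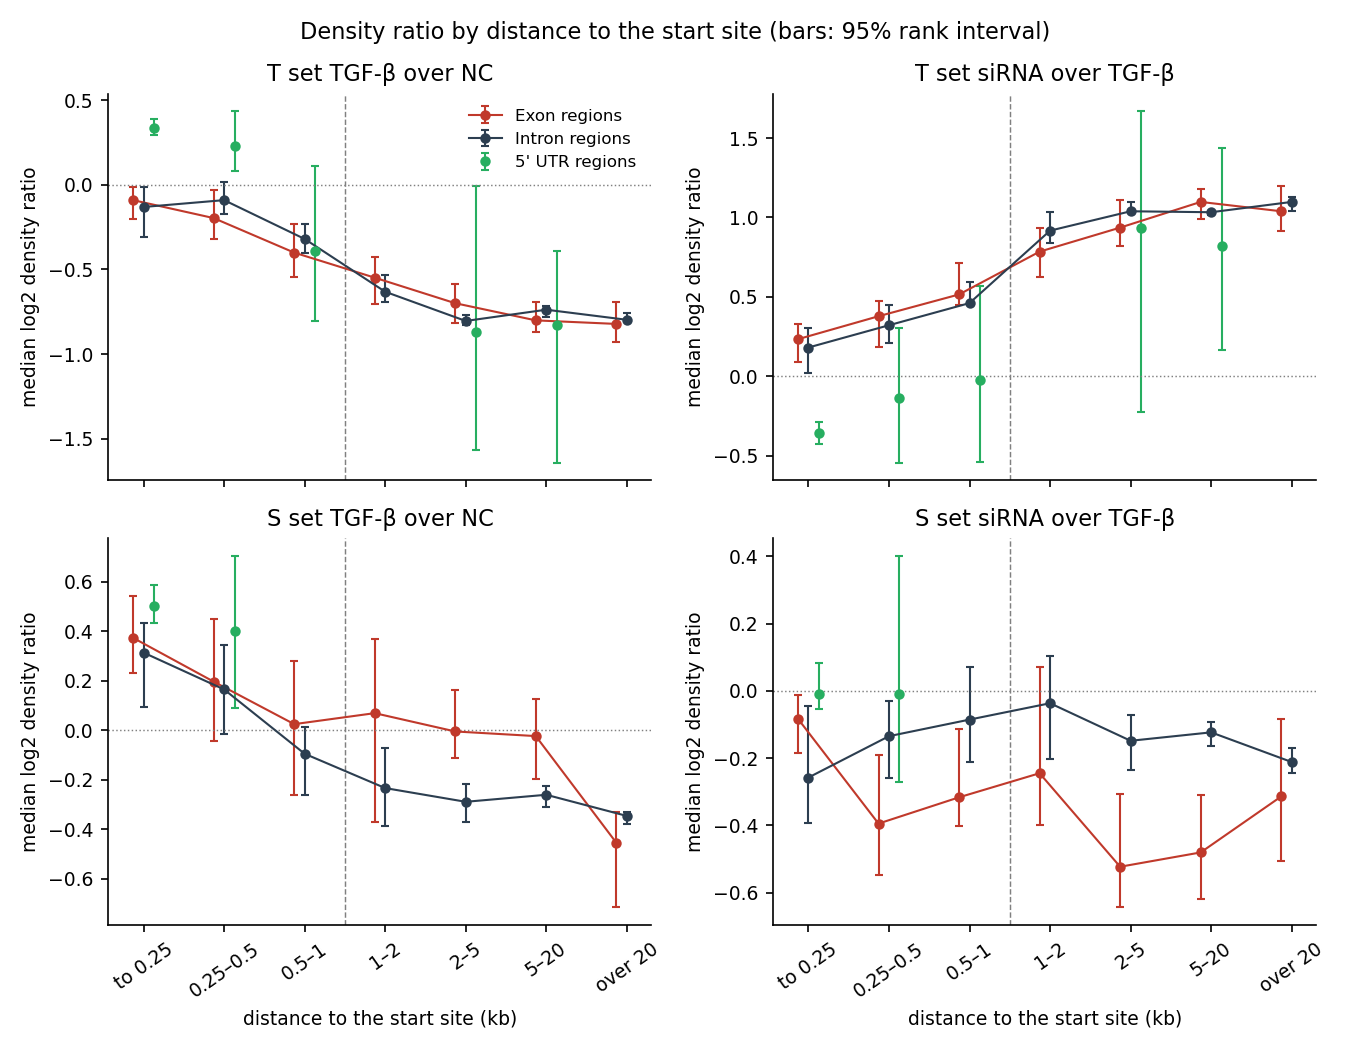
Median log2 density ratio (vertical axis) of exon, intron and 5′ UTR regions by distance to the nearest start site in kb (horizontal axis), 1 panel per table, with bars for the 95% rank interval and a dashed line at 1 kb. The T set exon curve falls from -0.09 to -0.82 with TGF-b and lies on the intron curve, while in the S set the exon curve is above the intron curve at 2 to 20 kb with TGF-b and below it with siRNA.

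Near a start, exon regions lay mostly on the first exon. First or single exons made up 71.3%, 69.8%, 75.6% and 77.6% of the regions within 1 kb. In the T set with TGF-b, single-exon transcripts had the highest median log2 ratio, 0.06 (-0.05 to 0.16), followed by first exons at -0.17 (-0.28 to -0.08), middle exons at -0.44 (-0.62 to -0.26) and last exons at -0.54 (-0.92 to -0.23). The intervals of first, middle and last exons overlap one another, and that of single exons overlaps none of them. Median density was 7.98 on single exons, 6.48 on first exons, 4.97 on middle exons and 4.98 on last exons. The order turned round with siRNA over TGF-b, from 0.03 on single exons to 0.24 on first, 0.71 on middle and 1.03 on last exons. First exons of the S set with TGF-b had 0.42 (0.26 to 0.52) and last exons -0.14 (-0.56 to 0.10).

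Protein-coding transcripts carried 36.1%, 36.4%, 43.7% and 40.7% of the regions within 1 kb and 56.4%, 58.3%, 62.3% and 61.2% of those beyond. The remaining regions lay mainly on long non-coding RNAs (20.8% to 23.6% within 1 kb) and on non-coding transcripts of other genes (21.7% to 30.7%). In the S set within 1 kb the protein-coding ones had a median of 0.42 (0.23 to 0.59) with TGF-b and -0.37 (-0.48 to -0.25) with siRNA, and long non-coding RNAs had -0.03 (-0.27 to 0.26) and -0.11 (-0.31 to 0.11). Their intervals overlap with TGF-b, and with siRNA they overlap from -0.31 to -0.25. The gene that holds the exon was also the gene with the nearest start in 95.7% to 96.2% of near regions and 76.1% to 76.8% of far ones, and regions are named here by the gene that holds the exon.

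The exons under the regions were long. First exons within 1 kb had a median length of 591, 558, 492 and 495 bases, against 177 over all first exons of the annotation. Middle exons beyond 1 kb had a median length of 177, 175, 185 and 180 bases, against 132 to 135 over all middle exons of the same transcripts. A longer exon is more likely to hold a region at any rate of calling, and this was not tested. CG content differed between the sets: first exons within 1 kb held a median of 2.58 and 2.57 CG per 100 bases in the T set and 3.82 and 4.39 in the S set, against 2.64 over all first exons. First exons called in both libraries held more in each table, 4.67 and 4.59 in the T set (116 and 93 exons matched) and 7.73 and 8.58 in the S set (18 and 51).

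In 3 of the 4 tables the ratios also differed with the GC content of the exon. Exons were matched by transcript and exon number in 86.6% to 95.8% of regions and divided into 3 equal groups by GC content, a division chosen after the ratios had been seen. In the T set within 1 kb with TGF-b, the median log2 ratio was -0.53 (-0.69 to -0.38) in the lowest group and -0.02 (-0.09 to 0.15) in the highest, and with siRNA it was 0.78 (0.61 to 0.97) and 0.10 (-0.06 to 0.23). Beyond 1 kb the values were -0.99 and -0.60, and 1.29 and 0.78. The S set with TGF-b showed the same direction within 1 kb, from -0.09 (-0.29 to 0.11) to 0.68 (0.52 to 0.87). With siRNA the S set groups within 1 kb were -0.09, -0.28 and -0.24, and their intervals overlap. Beyond 1 kb the S set groups from lowest to highest were -0.30, -0.24 and 0.099 with TGF-b and -0.40, -0.29 and -0.49 with siRNA, the latter with no order. GC content, distance and order of the exon go together, and their separate parts were not tested.

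**Figure D3:**
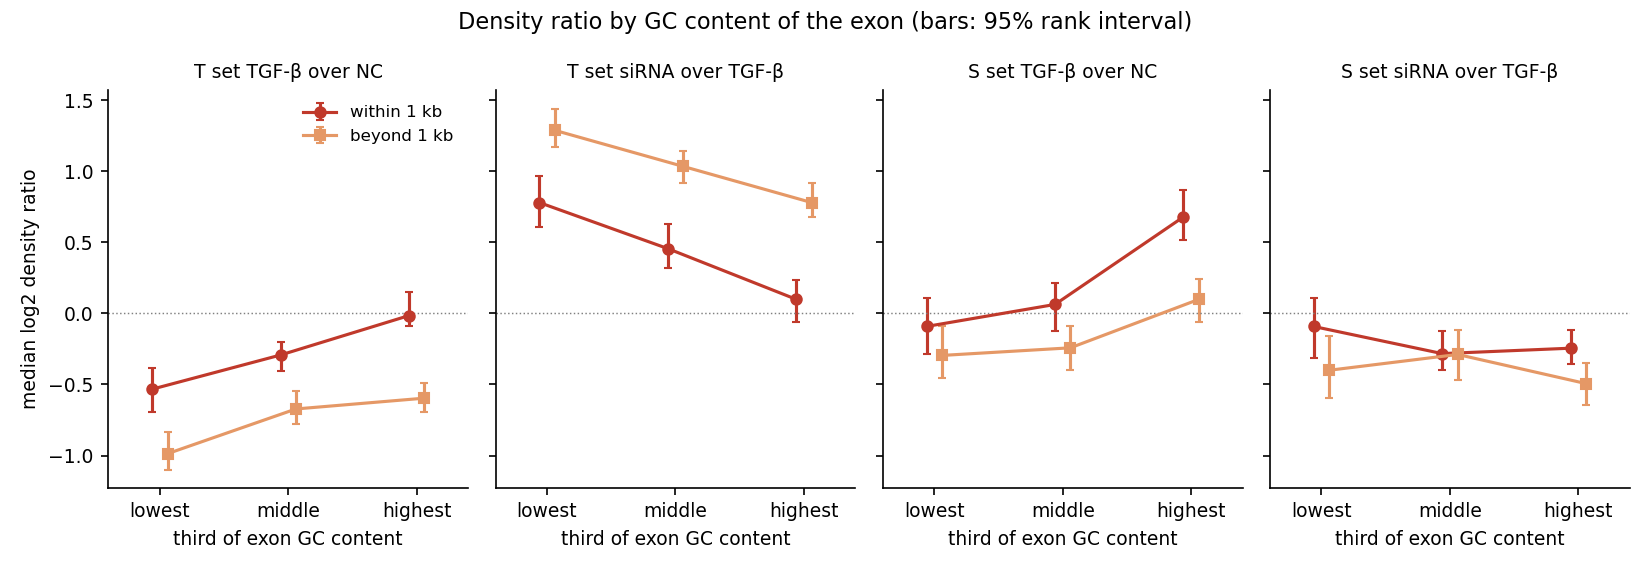
Median log2 density ratio (vertical axis) of exon regions in 3 equal groups of exon GC content (horizontal axis), within and beyond 1 kb, 1 panel per table, with bars for the 95% rank interval. In the T set both lines rise with GC content with TGF-b, from -0.53 to -0.02 within 1 kb, and fall with siRNA, from 0.78 to 0.10.

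The densest exon regions were mitochondrial. The 4 tables held 8, 9, 6 and 6 exon regions on the mitochondrial genome, with densities of 51703 to 258411 under NC in the T set. The lowest mean density among them was 577, 515, 680 and 672 times that of the densest nuclear exon region. Their log2 ratios ran from -0.15 to 0.27 and -0.45 to 0.19 in the T set and from -0.44 to 0.10 and -0.54 to 0.03 in the S set. A transposase cuts mitochondrial DNA readily because it is not packed in nucleosomes. Without these regions every median given above for near and far regions stayed within its rank interval.

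Among nuclear regions of the T set near a start, those with the most reads were on BC005624, 4932412D23Rik and Ccn2. The region on exon 1 of BC005624 (chr2:30871912-30872359, GRCm39 as are all regions below) held 136 reads under NC, 149 with TGF-b and 220 with siRNA, a log2 ratio of 0.01 (-0.33 to 0.34) and then 1.06 (0.76 to 1.36). The median over all regions was -0.65 with TGF-b and 0.97 with siRNA, so its ratio with siRNA was that of a typical region of the table and its ratio with TGF-b lay above. Other T set ratios below are to be read against the same medians. That on the long non-coding RNA 4932412D23Rik (chr16:42695706-42696189) went the other way, with 142, 199 and 55 reads and log2 ratios of 0.34 (0.04 to 0.65) and -1.34 (-1.76 to -0.92). Ccn2, a matricellular protein and classic target of YAP and TAZ, held 150, 115 and 54 reads on its first exon (chr10:24471483-24471791), with log2 ratios of -0.50 (-0.84 to -0.15) and -0.59 (-1.04 to -0.13). Its reads were highest under NC and lowest with siRNA.

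Highest and lowest log2 ratios here and below are among regions with at least 4 reads in each library and a density at or above the median of their distance group, and since the regions were chosen for their ratios, these are descriptions. With TGF-b the highest log2 ratio of the T set near a start was on exon 2 of Fermt2, which encodes the integrin activator kindlin-2 (chr14:45766895-45766992). It held 6 reads under NC, 58 with TGF-b and 2 with siRNA, and its log2 ratio with TGF-b was 3.13 (2.06 to 4.09). Glis3, a zinc finger transcription factor, held 4, 24 and 10 reads (chr19:28261151-28261386), and BC051226 held 8, 56 and 22. In all 3 regions the TGF-b library was the highest. The lowest log2 ratios with TGF-b were on Retreg2 and Naxe, a repair enzyme for damaged NADH and NADPH, with 35 reads under NC and 4 with TGF-b on each. The long non-coding RNA Gm29152 held 65 and 9, and the kinase gene Araf 32 and 4.

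With siRNA over TGF-b, the highest log2 ratios near a start in the T set were on the first exon of the long non-coding RNA 2310015K22Rik, which held 5 reads with TGF-b and 39 with siRNA (chr1:80202731-80202877), a log2 ratio of 3.20 (2.04 to 4.22), and on Adora3, the adenosine receptor gene of that name, with 5 and 35. Neither region was in the other T set table. The lowest were on Gm57122 (45, 113 and 12 reads under NC, TGF-b and siRNA), Gm57246 (20, 42 and 5), B3galt6, which builds the linker of proteoglycan chains (26, 48 and 6), and Phlda1 (21, 42 and 6). All 4 had their highest count with TGF-b, and choosing regions for a low ratio to that library favours such a pattern. The log2 ratio with siRNA was -2.65 (-3.42 to -1.85) for Gm57122 and -2.15 (-3.13 to -1.06) for Phlda1.

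Beyond 1 kb, the lowest log2 ratio with TGF-b in the T set was on exon 20 of Myof, which encodes myoferlin, a protein of membrane fusion and repair (chr19:37948076-37948350), with 68 reads under NC and 5 with TGF-b, a log2 ratio of -3.47 (-4.45 to -2.34). Tatdn1 held 43 and 4, Mrps10 of the mitochondrial ribosome 41 and 4, and Adamts16, a secreted metalloproteinase, 36 and 4. The highest log2 ratios were on exon 2 of Btd, the biotin-recycling enzyme (9, 55 and 22 reads, chr14:31384140-31384282), on Daglb, a diacylglycerol lipase (7, 37 and 18), and on the zinc transporter gene Slc39a9 (4, 22 and 1). The siRNA library lay between the other 2 for Btd and Daglb and below both for Slc39a9. Ankrd11, a chromatin regulator, had 88, 53 and 12 reads, the highest under NC.

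With siRNA over TGF-b, the highest log2 ratio beyond 1 kb in the T set was on exon 12 of Smarcd1, a subunit of the SWI/SNF remodeller (chr15:99610043-99610112), which held 4 reads with TGF-b and 36 with siRNA, a log2 ratio of 3.35 (2.10 to 4.39). Bpifb6 held 4 and 34, Lyst, a regulator of lysosome size, 7 and 49, and the formin gene Fmnl3 3, 4 and 30 over the 3 libraries. The lowest log2 ratios were on exon 12 of the ubiquitin ligase gene Rnf123 (11, 38 and 4 reads, chr9:107946151-107946274), on Srcin1 (17, 27 and 4) and on Pomt1, an O-mannosyltransferase (12, 27 and 4). Densely covered far regions included Fhl2 exon 5, a LIM-domain cofactor gene (54, 46 and 86 reads, chr1:43167467-43167693), Smoc2, a matricellular protein (32, 39 and 78), and Angptl6 (45, 97 and 55). Fhl2 had its highest count with siRNA, with a log2 ratio of 1.37 (0.87 to 1.88), an interval that takes in the 0.97 of all regions, and Angptl6 with TGF-b, at 1.04 (0.54 to 1.53) over NC.

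Neat1, the long non-coding RNA that scaffolds paraspeckles and is read here as 1 exon, held several of the densest far regions of the T set. Its 4 regions in the table of TGF-b over NC held 16 to 66 reads under NC and 29 to 75 with TGF-b, with log2 ratios from -0.44 to 0.86. Its 5 regions in the table of siRNA over TGF-b held 32 to 75 reads with TGF-b and 82 to 150 with siRNA, and their log2 ratios ran from 1.0 to 2.24. All 5 were at least 2-fold higher with siRNA, against 49.7% of all regions. These regions lie on 1 transcript and their windows can overlap, so they are not independent. A single S set Neat1 region held 5, 7 and 4 reads.

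Near a start in the S set, the densest nuclear regions were on long non-coding RNAs and on a few coding genes. Gm15287 held 40 reads under NC, 84 with TGF-b and 64 with siRNA. Its log2 ratios were 0.54 (0.01 to 1.07) and -0.41 (-0.87 to 0.05). Gm45885 held 30, 59 and 66. Slc35f5, of the nucleotide sugar transporter family, held 12, 41 and 76 (chr1:125488260-125488792) and was highest with siRNA, at a log2 ratio of 0.87 (0.34 to 1.40). BC005624, also among the densest of the T set, held 28, 53 and 47.

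By the same choice on ratios, the highest log2 ratios with TGF-b near a start in the S set were on Lef1os1 (4, 40 and 19 reads), 0610009L18Rik (4, 38 and 9), Gabbr2, a subunit of the GABA-B receptor (4, 36 and 8, chr4:46991006-46991214), and Bbs4, a subunit of the ciliary BBSome (4, 34 and 11). The log2 ratio was 2.47 (1.23 to 3.51) for Lef1os1 and 2.32 (1.07 to 3.37) for Gabbr2. In each of the 4 the siRNA library lay between NC and TGF-b in reads. Among the lowest were the last exons of the olfactory receptor genes Or4k6, with 20 reads under NC and 6 with TGF-b, and Or52d1, with 25 and 8.

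With siRNA over TGF-b, the lowest log2 ratios near a start in the S set were on the first exons of Slc47a1, a cation extrusion transporter (9, 38 and 4 reads), of Nodal, a ligand of the TGF-b family (11, 32 and 6, chr10:61254165-61254318), and of Noto, a notochord homeobox gene (7, 23 and 5). Their log2 ratios were -2.88 (-3.92 to -1.63), -2.16 (-3.16 to -1.05) and -1.91 (-2.97 to -0.70). The highest were on the transferrin receptor gene Tfr2, with 5 reads with TGF-b and 29 with siRNA, on the ubiquitin ligase gene Rnf125, with 7 and 27, and on the kinase gene Mapkapk3, with 8 and 29.

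Beyond 1 kb in the S set, Flg2, which encodes filaggrin-2 of the epidermis, held the densest region (chr3:93112918-93113948), with 38, 113 and 41 reads and log2 ratios of 1.04 (0.52 to 1.56) and -1.46 (-1.96 to -0.95). Its exon 3 held 6 regions per table, whose log2 ratios spanned 0.63 to 1.41 with TGF-b and -1.48 to -0.33 with siRNA, and 5 of the 6 were at least 2-fold lower with siRNA, against 27.8% of all regions. These windows are neighbours on 1 exon and count as 1 locus. The 5 Flg2 regions of the T set table of TGF-b over NC held 19 reads or fewer. Gm13425, a non-coding RNA beside Prdm12, held 15, 76 and 25 reads, and the last exon of Tmem132b 20, 61 and 13.

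The highest log2 ratios with TGF-b beyond 1 kb in the S set were on Gm12688 (10, 60 and 10 reads) and on internal exons of Camk2b, a calcium/calmodulin kinase (4, 26 and 3, chr11:5939575-5939721), of the giant cadherin gene Fat2 (4, 26 and 8) and of the polarity gene Llgl2 (4, 26 and 5). All 4 held 10 reads or fewer with siRNA. The lowest were on Cacna2d1, a calcium channel subunit (21 and 4), Slitrk3 (16 and 4) and Map3k4 (22, 6 and 15). The lowest with siRNA over TGF-b were on Asb18 (16, 50 and 8), Gm12688, exon 6 of the kinase gene Stk32b (6, 27 and 4, chr5:37647752-37648014) and Stmn4 (13, 40 and 7). Stk32b had a log2 ratio of -2.39 (-3.46 to -1.12).

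In the plot of named regions, 33 regions of the S set and 29 of the T set are shown with their reads in all 3 libraries. TGF-b was the highest library in 28 of the 33 S set regions and in 19 of the 29 T set regions. Most were chosen for density or for the size of a ratio that involves the TGF-b library, and read counts are not scaled, so that these counts describe the plot alone.

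**Figure D4:**
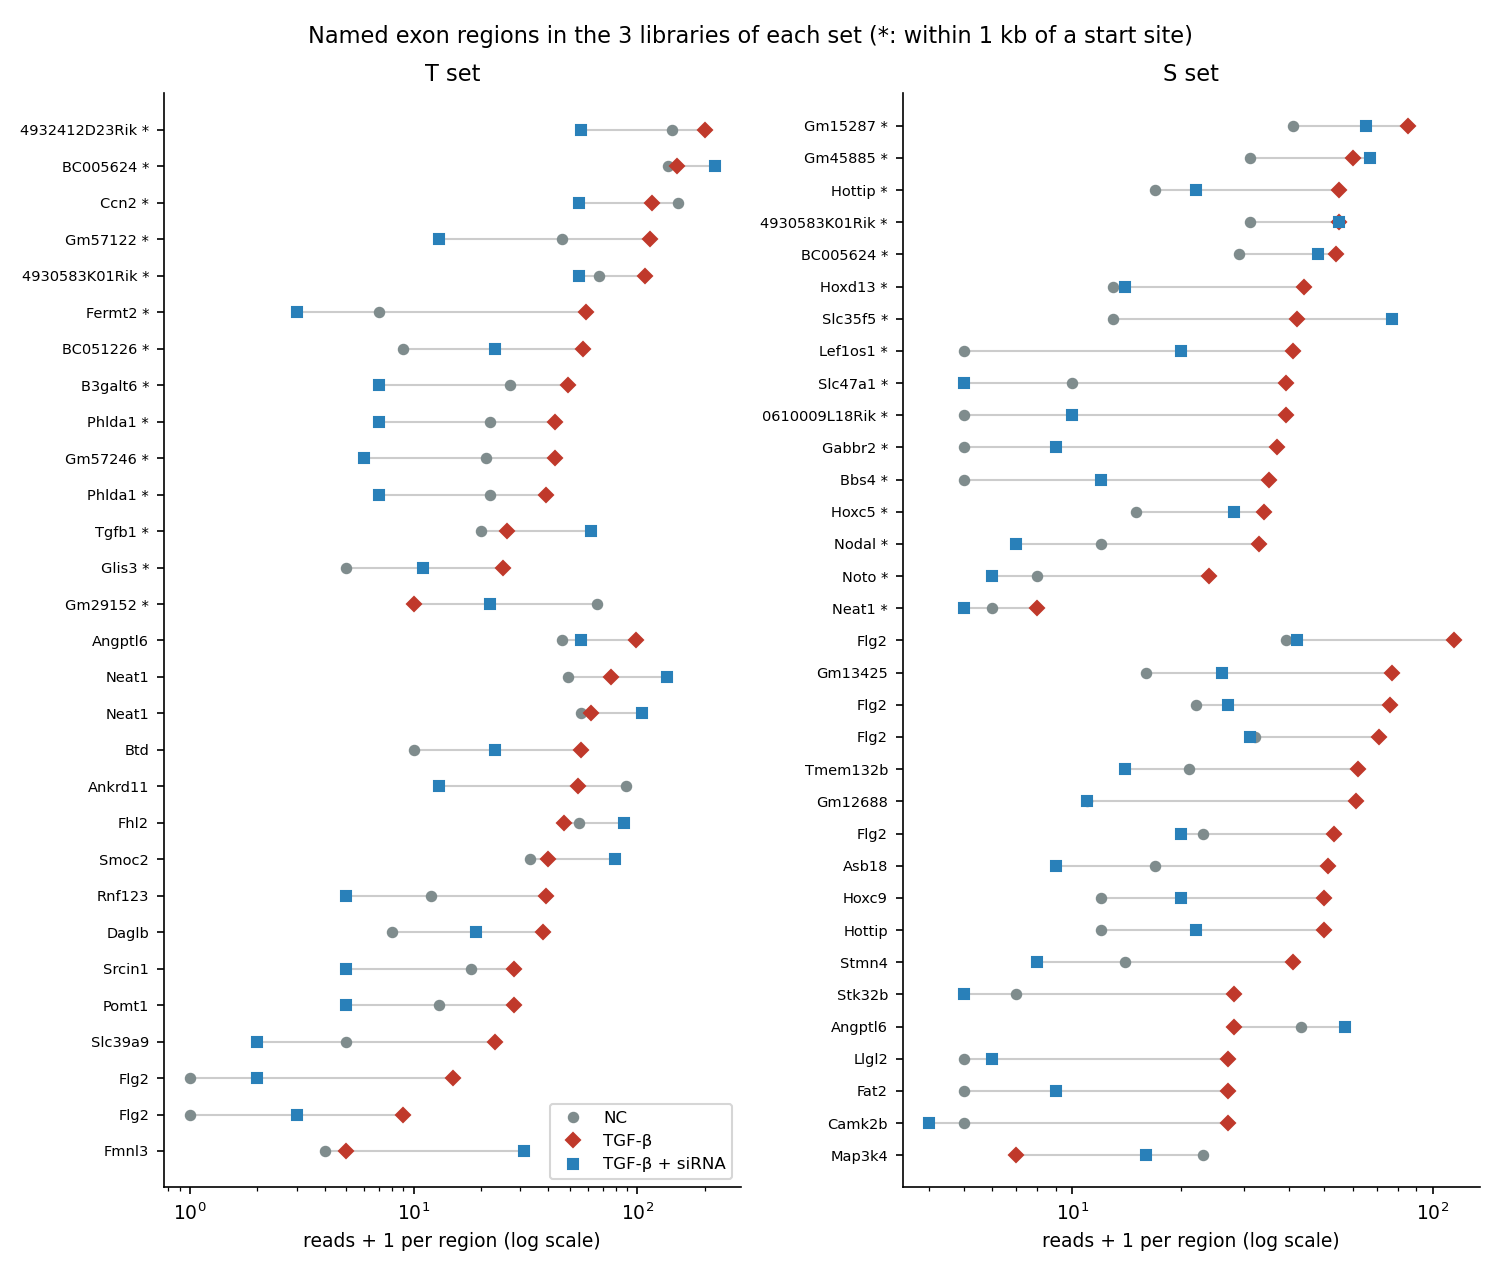
Reads plus 1 per region on a log axis (horizontal) for named exon regions of the T set (left) and S set (right) that were measured in all 3 libraries, with 1 point each for NC, TGF-b and TGF-b with siRNA, and a star for regions within 1 kb of a start site. Fermt2 held 6, 58 and 2 reads in the T set and Flg2 up to 113 reads with TGF-b in the S set.

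Pathway genes were read by list. Most regions of each list were called in 1 library alone, as were most regions of each table, and the side of their ratios mostly follows from the call, so the counts past 2-fold are descriptions. Of 40 matrix and myofibroblast genes, 14 held an exon region in each T set table and 6 and 3 in the S set tables. With TGF-b the T set held 16 such regions at a median log2 ratio of -0.77 (-1.45 to 0.38), 1 at least 2-fold higher and 5 lower, beside -0.65 over all regions, of which 17.3% were higher and 42.1% lower. The 18 with siRNA over TGF-b had 1.17 (0.19 to 2.36), 10 higher and 3 lower, beside 0.97, with 49.7% of all regions higher and 16.2% lower. The median over all regions lay within the interval of each. In the S set, 1 of 6 regions with TGF-b was 2-fold higher and 3 lower (17.4% and 26.7% of all regions), and with siRNA 1 of 4 was lower and 0 higher (27.8% and 15.1%). Decorin (Dcn), a collagen-binding proteoglycan, held 9, 7 and 10 reads in the T set.

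Of 35 SRF targets, 6 and 7 had an exon region in the T set and 3 and 3 in the S set. Of the 6 T set regions with TGF-b (median log2 ratio -0.10), 1 was at least 2-fold higher and 2 lower, where all regions gave 17.3% and 42.1%. Of the 7 with siRNA (0.27), 3 were higher and 1 lower, against 49.7% and 16.2%. Fhl2 exon 5 in the S set held 7, 18 and 12 reads, and exons of Vcl (vinculin) and Myh11 (smooth muscle myosin) each held 1, 9 and 0. All 3 S set regions were called with TGF-b alone in both tables, so that a higher value with TGF-b and a lower one with siRNA follow from the call, and nothing is read from the 2 of 3 past 2-fold in each (17.4% of all regions higher with TGF-b, 27.8% lower with siRNA). Of 27 YAP and TAZ targets, 5 and 6 had an exon region in the T set and 4 and 4 in the S set. The T set regions with TGF-b were 5, with a median log2 ratio of -0.65, 0 at least 2-fold higher and 2 lower, against 17.3% and 42.1% of all regions. With siRNA they were 8, with 1.04 (-0.73 to 3.90), 4 higher and 0 lower, against 49.7% and 16.2%. Of 4 S set regions in each table, 2 were lower with TGF-b (26.7% of all) and 1 with siRNA (27.8%), and 0 were higher (17.4% and 15.1%). Ccn1 held 40 reads under NC and 25 with TGF-b in the T set (log2 ratio -0.65, -1.33 to 0.04), and the Ccn2 region of the S set, near exon 4, held 19 and 12 (-1.18, -2.12 to -0.22). Amotl1, an angiomotin family member, held 3, 11 and 0 in the S set.

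Tgfb1, the gene of the ligand itself, held 19, 25 and 61 reads in the T set (chr7:25388788-25388942), with log2 ratios of 0.42 (-0.39 to 1.23) and 1.73 (1.09 to 2.37). Its count was highest with siRNA, and the interval of that ratio lies above the 0.97 of all regions, while the interval of the ratio with TGF-b includes 0. In all, 2, 3, 0 and 1 of 22 genes of the TGF-b pathway had an exon region. Of 3 T set regions with TGF-b, 0 were past 2-fold in either direction, where all regions gave 17.3% higher and 42.1% lower. With siRNA 3 of 4 were higher and 0 lower, against 49.7% and 16.2%. The 1 S set region with siRNA was at least 2-fold higher (15.1% of all regions) and was called with siRNA alone. Of the 5 Piezo and Tet genes, 3 and 4 had one in the T set and 0 in each S set table. Piezo1, a mechanosensitive channel, had 21 reads under NC and 4 with TGF-b on exon 26 and 8 and 22 with TGF-b and siRNA on exon 20, and Tet3, which oxidises methylated cytosine, had 22 and 10 on a short transcript of the gene. Piezo2, another such channel, had 0, 5 and 0 reads on exon 3. With siRNA a pair of Tet3 windows on the last exon held the same 1 and 23 reads, and count as 1 locus. In all, 1 of 3 regions with TGF-b was at least 2-fold higher and 1 lower, against 17.3% and 42.1% of all regions, and with siRNA 4 of 5 were higher, among them this pair, and 1 lower, against 49.7% and 16.2%.

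Gene families were taken by symbol. Zinc finger genes held 36 exon regions on 34 genes in the TGF-b over NC table of the S set, with a median log2 ratio of 0.32 (0.06 to 0.62) beside -0.20 over all regions, 7 of them at least 2-fold higher and 3 lower (17.4% and 26.7% of all regions), and 36 regions with siRNA over TGF-b had -0.86 (-1.25 to -0.36) beside -0.21, with 17 at least 2-fold lower (47.2%, against 27.8% of all regions) and 3 higher (against 15.1%). Called with TGF-b alone were 24 of the former (66.7%) and 27 of the latter (75%). Of S set intron regions beyond 20 kb, 43.8% and 45.7% were called with TGF-b alone in these tables. The side of the zinc finger ratios mostly follows from the call. The T set medians of zinc finger genes were -0.54 (70 regions) and 0.71 (81 regions), beside -0.65 and 0.97. Hox genes held 4 and 1 regions in the T set and 3 and 4 in the S set. The 4 T set regions with TGF-b had a median of -0.31, with 1 at least 2-fold lower, against 42.1% of all regions. In the S set, Hoxd13 had 12, 43 and 13 reads, Hoxc9 11, 49 and 19 and Hoxc5 14, 33 and 27. Hottip, the non-coding RNA at the end of the HoxA cluster, had 16, 54 and 21 on exon 1 and 11, 49 and 21 on exon 2. Of the Hox regions of the S set, 2 of 3 were at least 2-fold higher with TGF-b (17.4% of all regions), and 2 of 4 were lower with siRNA (27.8%). With TGF-b alone all 3 were called in the first table and 3 of the 4 in the second, and the side of their ratios follows from the call. The fourth of these, on the antisense RNA Hoxd3os1, was called with siRNA alone, with 25 reads with TGF-b and 16 with siRNA.

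Clustered protocadherins, adhesion proteins whose variable exons lie in a row, had 9 regions in the T set with TGF-b, with a median of -2.07 (-4.52 to -1.10) and 8 at least 2-fold lower, beside a median of -0.65 over all regions, 42.1% of which were 2-fold lower. Of these 9, 8 were called under NC alone and so low ratios follow from the call. In the S set they had 10 regions with TGF-b at a median of 0.41 (-0.26 to 0.90), beside -0.20 over all regions, with 1 at least 2-fold higher and 1 lower (17.4% and 26.7% of all). With siRNA 7 regions had -1.06 (-1.37 to 1.95), beside -0.21, with 1 higher and 4 lower (15.1% and 27.8% of all). Of the 2 T set regions with siRNA, 1 was higher and 1 lower (49.7% and 16.2% of all). Their windows can share reads where exons are close. Collagen genes, the main fibrous proteins of the matrix, held 24, 25, 3 and 6 regions with medians of -0.49, 0.60, -0.59 and 0.24, beside -0.65, 0.97, -0.20 and -0.21 over all regions. Pcdhac2 held 10, 35 and 15 reads in the S set. Olfactory and vomeronasal receptor genes, which are silent in most tissues, had 47, 70, 25 and 23 regions with medians of -0.58, 1.03, -0.44 and -0.51. Predicted and unnamed genes held 1479, 1496, 444 and 499 exon regions with medians of -0.38, 0.47, 0.00 and -0.13, and no histone gene held an exon region.

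Overlap between the sets was counted for exon regions alone. In the TGF-b over NC tables, 90 of 2016 T set regions within 1 kb overlapped an S set exon region (4.46%), and 89 of 631 S set regions overlapped a T set one (14.1%). Beyond 1 kb the shares were 1.77% and 6.21%. In the siRNA over TGF-b tables they were 6.08% and 16.3% within 1 kb and 2.23% and 8.75% beyond. Overlapping regions were thus a larger share near a start in both sets. No overlap share over all regions was counted, so whether these shares are particular to exon regions cannot be read from them. Of the T set regions, 82 overlapped exon regions of all 4 tables, 59 within and 23 beyond 1 kb, among them 6 mitochondrial ones and the regions on BC005624, 4930583K01Rik (66, 107 and 54 reads in the T set and 30, 54 and 54 in the S set) and Angptl6 (42, 27 and 56 reads in the S set).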

How the data were processed

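CUT&Tag was performed on mouse primary cardiac fibroblasts, with 1 library for each of 3 treatments in the T and S sets, 6 libraries in all. For each pair of libraries the authors deposited a table of regions, with the caller's verdict, an annotation on GRCm39 coordinates, and a normalized density per library (signal in a window of 2 kb, where 1 read adds 0.5 before rescaling). The submitters' processing notes name mm10 and BWA 0.7.12, whereas the study's methods name GRCm39 and Bowtie2, and the coordinates fit the latter: only 92 of 4941 transcripts in the first table have their GRCm38 position, although 97.6% have the same length. Columns of the authors' own fold changes and p-values were not used. The study's methods mention a DNA spike-in, which was not used here.

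The log2 ratio was taken from the 2 densities. The rescaling line of each table was solved from the densities, and reads came out whole within 0.1 in 99.98% to 99.99% of regions. The solution was tested on simulated data. With 1 library per treatment, no test was made. Medians carry a 95% rank interval over regions, which are not replicates, and single regions an interval from their reads, which covers counting error only. Exons were matched by transcript and exon number to GENCODE vM21 on GRCm38, and promoters by symbol to RefSeq on GRCm38.p6. Of the genes with first-exon regions within 1 kb, 46.9% to 53.1% had a promoter in that table, so motif shares of the regions are void and none is given.

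Regions were named by a rule, 1 region per gene in each table and distance group: the 3 densest, the 4 highest and 4 lowest log2 ratios among regions with at least 4 reads in both libraries and a density of at least the group's median, the 3 densest found in all 4 tables, and genes of the pathway lists. The densest nuclear regions, Neat1, Flg2, Hottip, and single genes of lists and families were added after their values had been seen. Some regions that the rule selects are not reported here, and the plot of named regions shows those the text names. Members and lists were chosen with earlier results of these data known. Calculations used Python 3.11.15, numpy 2.4.6, pandas 2.3.3, SciPy 1.17.1 and matplotlib 3.10.9.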

Additional observations from a re-analysis of the deposited data

Results flagged for a closer look

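In 3 cases the median log2 ratio of exon regions lay on opposite sides of 0 in the T and S sets, and with 1 library per treatment the difference was not tested. Within 1 kb with TGF-b over NC, the T set median of -0.18 and the S set median of 0.26 differed by -0.44. Within 1 kb with siRNA over TGF-b, the medians of 0.33 and -0.19 differed by 0.52. Beyond 1 kb with siRNA over TGF-b, the medians of 1.0 and -0.39 differed by 1.40. Centred on all regions, the first of these pairs was 0.47 and 0.46, so that its difference depends on the scaling. The second was -0.64 and 0.024, and the third 0.033 and -0.18.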

How the results depend on the processing

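No paired analysis was possible because each treatment of a set had 1 library, and for the same reason no library could be left out. The medians kept their direction and size with 1 region per gene, with the distance divided at 500 bp and on nuclear chromosomes alone. They depended on the scaling. Centred on all regions, the medians within 1 kb were 0.47, -0.64, 0.46 and 0.024 in the 4 tables (T set TGF-b over NC, T set siRNA over TGF-b, then the S set) and those beyond 1 kb -0.10, 0.033, 0.084 and -0.18, so that the sign within 1 kb turned in 3 tables. Without the rescaling line, the T set medians were -0.85 beyond 1 kb with TGF-b and -0.14 within and 0.53 beyond 1 kb with siRNA, and the S set medians with TGF-b were 0.83 and 0.47. Raising read counts under 3 to 3 gave T set medians beyond 1 kb of -0.51 and 0.76. Regions with at least 10 reads in a library gave -0.99 beyond 1 kb in the T set with TGF-b, 0.11 and 1.20 with siRNA, 0.42 and 0.15 in the S set with TGF-b, and -0.60 beyond 1 kb with siRNA. With regions called in either library alone weighted equally, an alternative chosen after seeing the data, the T set medians were 0.14 and -0.0052 within 1 kb, so that both signs turned, and 0.063 and 0.11 beyond, against -0.76 and 1.0, and the S set median within 1 kb with TGF-b was 0.054.

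The difference between the medians within and beyond 1 kb, also added after seeing the data, kept its sign in every table with centring, without the line, with reads raised to 3, with at least 10 reads and with equal weighting, although equal weighting brought it to 0.075 and -0.11 in the T set and to 0.19 with TGF-b in the S set. Among regions called in both libraries, the S set medians with TGF-b were in the opposite order, 0.10 within and 0.43 beyond 1 kb. In the T set it was 0.38 and -0.43 with read counts under 3 raised to 3. Among regions with at least 10 reads it was 0.84 and -1.09, and for siRNA in the S set 0.37. The cause of these shifts was not tested.

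Counts past 2-fold changed by over 1.5 times in 8 of 16 cases under centring, where higher and lower regions of the T set were 688 and 322 within and 1025 and 1108 beyond 1 kb with TGF-b, and 335 and 810, and 1266 and 1158, with siRNA. Without the line they were 286 and 46 within and 408 and 180 beyond 1 kb in the S set with TGF-b. With at least 10 reads 8 counts fell for want of regions (T set beyond 1 kb 305 and 1107, and 1043 and 296; T set within 1 kb with siRNA 411 higher; S set with TGF-b 50 and 167 lower; S set beyond 1 kb with siRNA 97 higher). The floor of 3 reads gave 296 lower regions beyond 1 kb in the T set with siRNA. A threshold of 4-fold left 16 to 1263 regions, and one of 1.5-fold gave 136 lower in the S set with TGF-b and 138 and 239 with siRNA, all within 1 kb. Depth also limits single regions: beyond 1 kb, 25.3% to 56.0% of regions had 3 reads or fewer in a library.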

Other observations

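Several genes held many exon regions, which the rule for named regions does not show because it takes 1 region per gene. In the 4 tables, 748, 857, 89 and 90 genes held at least 2 exon regions. Ttn, the giant sarcomere protein of muscle, held 17, 18, 4 and 5. Tet3 held a pair of windows on its last exon in the T set table of siRNA over TGF-b, each with 1 read with TGF-b and 23 with siRNA, which share their reads and count as 1 locus. Dock5, a Rac activator, held 3 regions in that table, with 2 and 25, 5 and 22, and 0 and 10 reads.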
